A study of Mus musculus with 10 samples.

Results

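The genes described here act in the Fanconi anaemia pathway, in homologous recombination and its checkpoint signalling, in the joining of broken DNA ends and in DNA mismatch repair. They form a fixed list of 33 gene symbols. Probe sets whose platform symbol was exactly 1 of these were kept, and a gene with several probe sets was represented by the one with the highest mean over the 10 arrays. This gave 32 of the 33 genes, out of 19938 genes on the arrays. Xrcc2 is not analysed here. Total RNA from 10 mouse thyroid tumours of mixed C57BL/6;129SvJae background was measured, each on an Affymetrix whole-transcript array of its own. The group of 5 papillary thyroid carcinomas (PTC) carried the TPOCreER transgene and BrafV600E. The 5 anaplastic thyroid carcinomas (ATC) carried TPOCreER and BrafV600E as well and were in addition p53 -/-. In this model the thyroid peroxidase promoter drives a Cre recombinase that works only in the presence of tamoxifen, so that mutant Braf, which both groups share, is switched on in thyroid follicular cells. Tumour type and p53 genotype changed together and cannot be told apart. The gene of p53 itself is not analysed here, so this genotype was not checked on the arrays. The labels name biological replicates without saying whether each tumour came from a different mouse, and they give no age, so p-values measure the spread between these tumours.

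The Fanconi anaemia pathway removes crosslinks that tie the strands of DNA together. A core complex of Fanconi proteins attaches ubiquitin to the pair FANCD2 and FANCI, which then brings in nucleases and the recombination machinery. Homologous recombination repairs broken DNA from the sister copy with the help of BRCA1, PALB2 and BRCA2, and it runs mainly in the S and G2 phases of the cell cycle. End joining, which starts when the Ku proteins bind a broken end, works in every phase, and mismatch repair removes copying errors behind the replication fork. ATM and ATR signal DNA damage to the checkpoint kinases CHK2 and CHK1 and, through them, to p53, for which the ATC tumours are labelled null. Many genes of recombination are transcribed mainly in dividing cells.

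Levels are given as log2 intensity of a probe set. A difference is the ATC mean less the PTC mean, in log2 units, and errors on means are SDs over the 5 tumours of a group. A gene was said to rise or fall where its limma p-value was under 0.05 after Benjamini-Hochberg adjustment, which covered 19938 genes. Intensities are not set against each other between genes, since probes differ in brightness. Array medians lay between 7.25 and 7.34. ATC replicate 5 had a wider distribution than the other arrays (quartiles 6.02 and 8.72, against 6.10 to 6.19 and 8.57 to 8.64) and the lowest array weight (0.38). Thyroglobulin, the defining product of thyroid follicular cells, was at 11.28 to 12.88 in PTC and 6.84 to 12.001 in ATC, so that 2 ATC tumours were at 7.17 and 6.84. Its difference did not pass by limma (adjusted p = 0.0583). Mean log2 intensities of marker lists moved between the groups. Of all genes, 11.5% rose and 9.72% fell. The thyroid follicular mean was 8.15 to 9.04 in PTC and 6.88 to 8.28 in ATC, with 4 of 11 markers fallen. The macrophage mean was 9.23 to 9.75 in PTC and 10.46 to 11.17 in ATC, with 10 of 11 markers risen. The epithelial mean was 10.28 to 10.45 and 8.06 to 9.56, with 7 of 9 fallen, and the T cell mean was 7.14 to 7.54 and 6.61 to 7.17, with 3 of 7 fallen. Thymocyte markers, which would mark tissue of the neighbouring thymus, had means of 6.16 to 6.33 and 6.02 to 6.22, with 2 of 8 fallen and 0 risen by limma (0 also at an unadjusted p under 0.05). Skeletal muscle and parathyroid markers differed widely between tumours of a group (means 6.77 to 8.99 and 7.04 to 8.51, and 5.62 to 10.24 and 5.47 to 9.71). A whole tumour piece mixes cell types, so fewer cells of a type and less RNA per cell cannot be told apart, and the part of cell composition in the results below was not tested.

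Repair genes of the list were higher in ATC or did not pass the test. Of 32 genes, 16 rose and 16 did not pass. By limma 0 fell, also at an unadjusted p under 0.05, against 21 that were higher at that level. Of all 19938 genes tested, 11.5% rose and 9.72% fell. At an unadjusted p under 0.05 by limma, 3453 of them were higher in ATC and 3071 lower. The median difference was 0.36 over the 32 genes and −0.018 over all genes. For 15 of the 32 genes the lowest ATC tumour exceeded the highest PTC tumour, as it did for 9.13% of all genes, and for 0 the order was the reverse, as for 7.74% of all genes. By role, the median difference was 0.066 for the Fanconi core complex, 0.21 for the pair Rad51c and Xrcc3 and 0.19 for sensors and checkpoint kinases. It was 0.55 for the FANCD2 and FANCI pair, 0.52 for the BRCA proteins and partners, 0.55 for the RAD54, BLM and EXO1 group, 0.40 for end joining and 0.36 for mismatch repair. The rises were moderate. They ran from 0.27 for Rad51c to 0.92 for Chek1, or 1.21-fold to 1.89-fold, 10 of the 16 were at least 0.5 log2 units and 0 reached 1 log2 unit. ATC tumours varied more: 26 of the 32 genes had the larger SD in ATC, as did 68.6% of all genes. The median SD over the 32 genes was 0.20 in ATC and 0.12 in PTC, and over all genes it was 0.17 and 0.13.

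**Figure D1:**
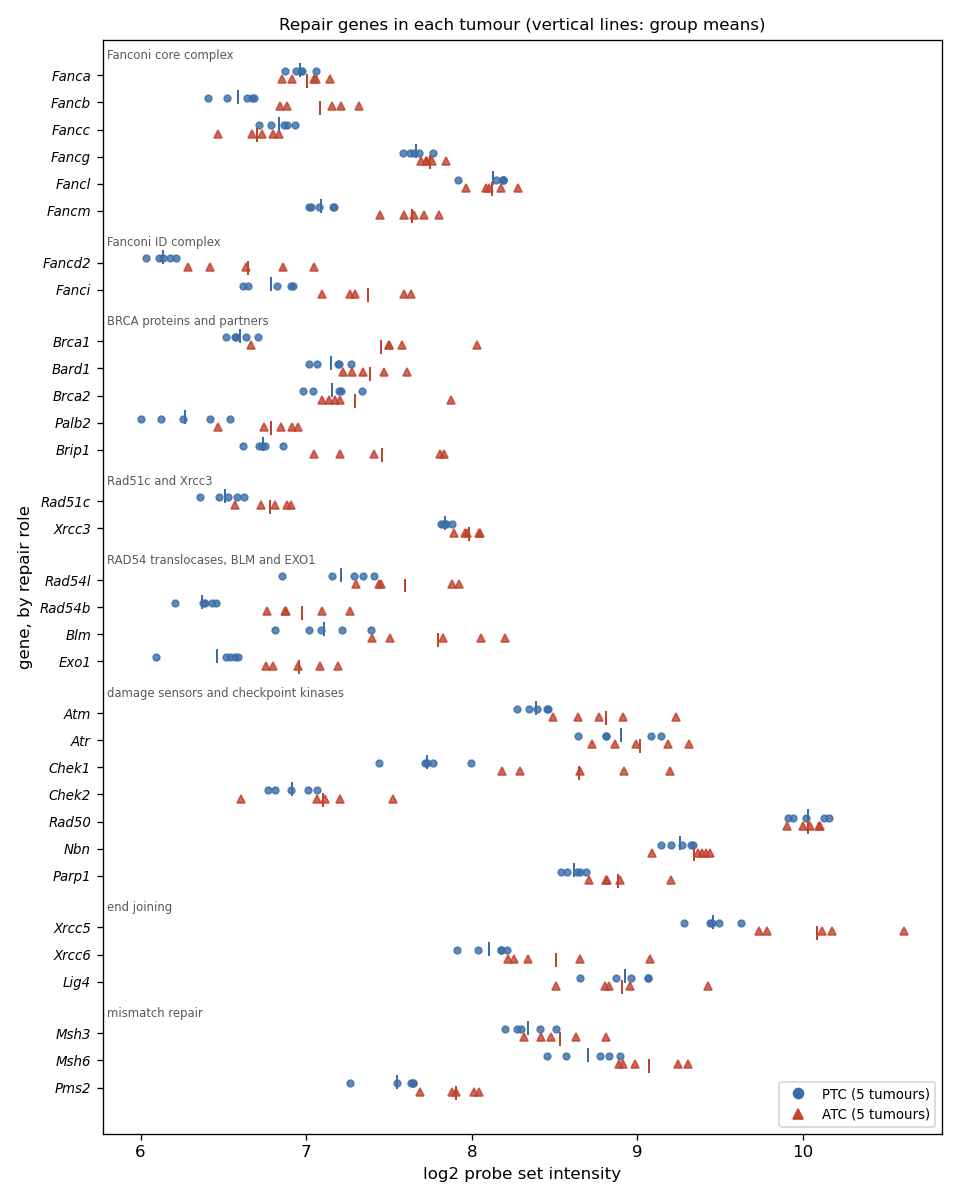
Log2 probe set intensity (horizontal axis) of the 32 repair genes in each of 5 PTC tumours (circles) and 5 ATC tumours (triangles), grouped by repair role, with group means as short vertical lines. The ATC triangles lie wholly to the right of the PTC circles for 15 genes, among them Fancm, Rad54b and Xrcc5, and the groups overlap for the other 17, among them Rad50 and Fancl.

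Within the Fanconi core complex, the 6 genes split: Fancm and Fancb rose, and Fanca, Fancc, Fancg and Fancl did not pass. Fancm encodes the DNA translocase that anchors the complex on stalled forks. It was at 7.08, 7.16, 7.17, 7.02 and 7.03 in the PTC tumours and 7.80, 7.59, 7.71, 7.44 and 7.65 in the ATC tumours. The groups stood apart, with a gap wider than the range of the PTC values. The difference of 0.55 (1.46-fold, 95% interval 0.38 to 0.72, adjusted p = 0.000727) had the smallest p of the 32 genes. Fancb, an X-linked gene whose product belongs to the catalytic part of the complex, was at 6.41, 6.68, 6.67, 6.52 and 6.64 in the PTC tumours and 7.15, 7.21, 6.88, 6.84 and 7.32 in the ATC tumours. The groups did not overlap here either, and the difference was 0.50 (95% interval 0.27 to 0.72, adjusted p = 0.0061). Fancl, which encodes the ubiquitin ligase subunit itself, was at 8.13 ± 0.12 in PTC and 8.12 ± 0.12 in ATC, which left a difference of −0.0042 (95% interval −0.18 to 0.17, adjusted p = 0.981). For the scaffold genes Fanca and Fancg and for Fancc, differences were 0.042, 0.090 and −0.13 (adjusted p = 0.745, 0.358 and 0.292). Their 95% intervals reached from −0.31 for Fancc to 0.23 for Fancg.

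Both genes of the FANCD2 and FANCI pair, the substrate of the core complex, rose. Fanci was at 6.65, 6.82, 6.92, 6.91 and 6.62 in the PTC tumours and 7.27, 7.63, 7.30, 7.10 and 7.59 in the ATC tumours, a difference of 0.59 (95% interval 0.34 to 0.84, adjusted p = 0.00393). Fancd2 was at 6.11, 6.18, 6.14, 6.03 and 6.22 in the PTC tumours and 6.42, 6.86, 6.64, 6.29 and 7.05 in the ATC tumours, a difference of 0.52 (95% interval 0.23 to 0.80, adjusted p = 0.0163). The groups did not overlap for either gene. ATC replicates 1 and 4 were nearest to the PTC tumours for Fancd2, and ATC replicates 2 and 5 were the highest for both genes.

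Of the BRCA proteins and their partners, Brca1, Brip1 and Palb2 rose, and Bard1 and Brca2 did not pass. Brca1 encodes the ubiquitin ligase that promotes the trimming of broken ends and recruits PALB2. It was at 6.57, 6.52, 6.64, 6.71 and 6.58 in the PTC tumours and 7.50, 7.50, 7.58, 6.67 and 8.03 in the ATC tumours. Of the ATC tumours, replicate 4 lay within the PTC range and the other 4 were above it, with replicate 5 highest. The difference was 0.85 (1.81-fold, 95% interval 0.43 to 1.28, adjusted p = 0.00958), and without ATC replicate 4 it was 1.05. Brip1, a helicase bound by BRCA1 and also known as FANCJ, was at 6.86, 6.75, 6.73, 6.72 and 6.62 in the PTC tumours and 7.20, 7.81, 7.41, 7.05 and 7.83 in the ATC tumours. The groups did not overlap, and the difference was 0.72 (1.65-fold, 95% interval 0.40 to 1.04, adjusted p = 0.00502). Palb2, the bridge between BRCA1 and BRCA2, was at 6.001, 6.54, 6.42, 6.26 and 6.12 in the PTC tumours and 6.95, 6.74, 6.47, 6.92 and 6.85 in the ATC tumours, a difference of 0.52 (95% interval 0.25 to 0.78, adjusted p = 0.0113). Here ATC replicate 3 was the lowest of its group and lay below PTC replicate 2.

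Brca2, a mediator of recombination, was at 7.04, 7.21, 7.33, 6.98 and 7.20 in the PTC tumours and 7.14, 7.20, 7.10, 7.17 and 7.88 in the ATC tumours. ATC replicate 5 stood above all other tumours, and the other 4 ATC tumours lay within the PTC range. The difference was 0.14 (95% interval −0.17 to 0.46, adjusted p = 0.544), and without ATC replicate 5 it was −0.0017. Bard1, the obligate partner of BRCA1, was at 7.15 ± 0.10 in PTC and 7.38 ± 0.16 in ATC, a difference of 0.24 (95% interval 0.045 to 0.43, adjusted p = 0.0795). It passed without ATC replicate 5 (0.28, adjusted p = 0.048), and also with quantile normalization once more (difference 0.28, adjusted p = 0.0369), with arrays centred on their median (difference 0.28, adjusted p = 0.043) and with array weights (difference 0.26, adjusted p = 0.0431). Its other 2 probe sets differed by −0.024 and 0.040. With the mean of its 3 probe sets the difference was 0.084 and did not pass (adjusted p = 0.569).

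Of the related recombination genes Rad51c and Xrcc3, Rad51c rose and Xrcc3 did not pass. Rad51c was at 6.58, 6.53, 6.36, 6.62 and 6.47 in the PTC tumours and 6.57, 6.91, 6.73, 6.89 and 6.81 in the ATC tumours, with ATC replicate 1 inside the PTC range. The difference of 0.27 (95% interval 0.087 to 0.45, adjusted p = 0.0392) was the smallest of the 16 rises. The gene did not pass once any 1 of PTC tumours 1, 2, 3 and 5 or ATC tumours 2, 3, 4 and 5 was left out (0.23 to 0.29, adjusted p 0.0527 to 0.0985) and with all probe sets in the adjustment (adjusted p = 0.0594). Xrcc3 varied little, at 7.88, 7.84, 7.82, 7.84 and 7.82 in the PTC tumours and 7.96, 7.90, 8.05, 8.04 and 7.97 in the ATC tumours. The groups did not overlap although the difference of 0.14 did not pass (95% interval 0.016 to 0.27, adjusted p = 0.108). It passed with arrays centred on their median (difference 0.18, adjusted p = 0.0457).

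Of the enzymes that act on recombination intermediates, Rad54b, Blm and Exo1 rose. Rad54b, a DNA translocase of recombination, was at 6.39, 6.43, 6.38, 6.46 and 6.21 in the PTC tumours and 6.88, 7.09, 6.87, 6.77 and 7.26 in the ATC tumours, without overlap and with a difference of 0.60 (1.52-fold, 95% interval 0.39 to 0.82, adjusted p = 0.00161). Blm, the helicase that dissolves crossed-over DNA and is mutated in Bloom syndrome, was at 7.09, 7.22, 7.39, 7.02 and 6.81 in the PTC tumours and 7.40, 8.06, 7.51, 7.82 and 8.20 in the ATC tumours. The lowest ATC value exceeded the highest PTC value narrowly, and the difference was 0.69 (1.61-fold, 95% interval 0.34 to 1.05, adjusted p = 0.0108). Exo1, an exonuclease used in end trimming and in mismatch repair, was at 6.57, 6.54, 6.51, 6.09 and 6.59 in the PTC tumours and 6.95, 6.80, 7.08, 6.76 and 7.19 in the ATC tumours, a difference of 0.50 (95% interval 0.24 to 0.75, adjusted p = 0.0113). PTC replicate 4 was the low tumour, and the groups stayed apart. Rad54l, the paralog of Rad54b, was at 7.21 ± 0.22 in PTC and 7.60 ± 0.28 in ATC with overlapping groups (difference 0.39, 95% interval 0.070 to 0.71, adjusted p = 0.0821). It passed without ATC replicate 3 (0.46, adjusted p = 0.0466).

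**Figure D2:**
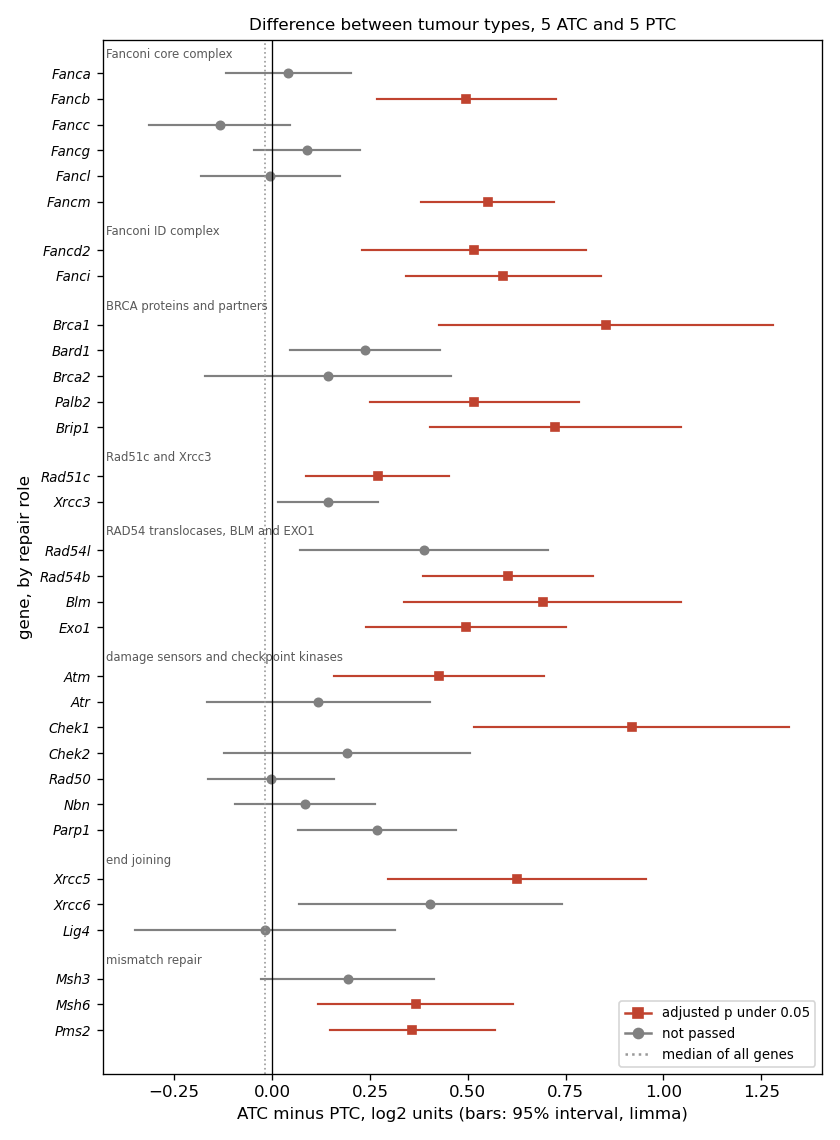
Difference between ATC and PTC in log2 units (horizontal axis) with its 95% interval from limma for the 32 genes, 5 tumours per group, by repair role. Squares mark the 16 genes that rose, from 0.27 to 0.92, circles the 16 that did not pass, and the dotted line the median of all genes (−0.018).

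Among damage sensors and checkpoint kinases, the difference of Chek1 was the largest of the 32 genes, whereas Atm rose less and Chek2, Atr, Rad50, Nbn and Parp1 did not pass. Chek1, the kinase that ATR activates at stalled forks and that delays entry into mitosis, was at 7.44, 7.73, 7.995, 7.77 and 7.72 in the PTC tumours and 8.29, 8.65, 9.20, 8.18 and 8.92 in the ATC tumours. The groups did not overlap, ATC replicate 3 was the highest tumour, and the difference was 0.92 (1.89-fold, 95% interval 0.52 to 1.32, adjusted p = 0.00482). Chek2, the ATM-activated kinase, was at 6.77, 7.06, 7.01, 6.91 and 6.81 in the PTC tumours and 7.06, 7.53, 7.12, 6.61 and 7.21 in the ATC tumours. ATC replicate 4 was the lowest of all 10 tumours and ATC replicate 2 the highest, and the difference was 0.19 (95% interval −0.12 to 0.50, adjusted p = 0.399), or 0.32 and 0.086 when replicate 4 or replicate 2 was left out.

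Atm, the kinase that responds to broken ends, was at 8.27, 8.45, 8.46, 8.35 and 8.39 in the PTC tumours and 8.49, 8.64, 9.23, 8.77 and 8.92 in the ATC tumours, without overlap. The difference of 0.43 (95% interval 0.16 to 0.69, adjusted p = 0.0289) was not called when PTC tumour 1, 4 or 5 or ATC tumour 5 was dropped (0.40 to 0.43, adjusted p 0.0529 to 0.0692). Atr, its counterpart for stalled forks, was at 8.90 ± 0.21 in PTC and 9.02 ± 0.24 in ATC, which left a difference of 0.12 (95% interval −0.17 to 0.40, adjusted p = 0.584). Rad50 and Nbn encode partners in the complex that first holds a broken end. Rad50 was at 9.91, 10.02, 10.16, 9.94 and 10.13 in the PTC tumours and 10.10, 10.10, 9.90, 10.04 and 9.999 in the ATC tumours, with a difference of −0.0035 (95% interval −0.16 to 0.16, adjusted p = 0.983), so the interval spans changes of up to 0.16 in either direction. The difference of Nbn was 0.084 (95% interval −0.094 to 0.26, adjusted p = 0.525), and that of its dimmer probe set −0.049. Parp1, which marks DNA breaks with chains of ADP-ribose, was at 8.69, 8.58, 8.54, 8.64 and 8.65 in the PTC tumours and 8.71, 8.90, 8.81, 8.81 and 9.21 in the ATC tumours. The groups did not overlap but the difference of 0.27 did not pass (95% interval 0.067 to 0.47, adjusted p = 0.0599). It passed without ATC replicate 1 (0.31, adjusted p = 0.0419), with arrays centred on their median (difference 0.31, adjusted p = 0.0326), with array weights (difference 0.25, adjusted p = 0.0338) and among genes above the median level (adjusted p = 0.048).

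In end joining, the gene of the Ku80 subunit rose. Xrcc5, which encodes Ku80, was at 9.28, 9.49, 9.63, 9.45 and 9.44 in the PTC tumours and 10.12, 9.73, 10.61, 10.17 and 9.78 in the ATC tumours, without overlap and with a difference of 0.63 (1.54-fold, 95% interval 0.30 to 0.95, adjusted p = 0.0124). Xrcc6, which encodes its partner Ku70, was at 7.91, 8.18, 8.18, 8.21 and 8.04 in the PTC tumours and 8.34, 8.25, 9.07, 8.22 and 8.65 in the ATC tumours. ATC replicate 3 was the highest tumour for both Ku genes, ATC replicates 2 and 4 lay just above the PTC tumours for Xrcc6, and the difference of 0.40 did not pass (95% interval 0.068 to 0.74, adjusted p = 0.0865). Without ATC replicate 3 it was 0.26. Lig4, the ligase that seals the joined ends, was at 8.65, 8.87, 8.96, 9.07 and 9.06 in the PTC tumours and 8.81, 8.95, 9.43, 8.83 and 8.51 in the ATC tumours. ATC replicate 3 was the highest and ATC replicate 5 the lowest of all 10 tumours, and the difference was −0.018 (95% interval −0.35 to 0.31, adjusted p = 0.952).

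In mismatch repair, Pms2 and Msh6 rose and Msh3 did not pass. Pms2, the subunit that nicks the strand to be corrected, was at 7.55, 7.65, 7.64, 7.26 and 7.64 in the PTC tumours and 7.69, 7.88, 8.01, 7.90 and 8.04 in the ATC tumours, without overlap and with a difference of 0.36 (95% interval 0.15 to 0.57, adjusted p = 0.0211). Msh6, which recognises single mispaired bases, was at 8.45, 8.90, 8.83, 8.77 and 8.57 in the PTC tumours and 9.31, 8.92, 9.25, 8.89 and 8.99 in the ATC tumours. ATC replicate 4 lay just below PTC replicate 2, and the difference was 0.37 (95% interval 0.12 to 0.62, adjusted p = 0.0403). Msh6 did not pass when any 1 of PTC tumours 1, 3, 4 and 5 or ATC tumours 1, 3 and 5 was dropped (0.30 to 0.40, adjusted p 0.0517 to 0.0949), with all probe sets in the adjustment (adjusted p = 0.0618), with quantile normalization once more (difference 0.32, adjusted p = 0.0575) and with array weights (difference 0.31, adjusted p = 0.0628). Msh3, which recognises small loops, was at 8.34 ± 0.12 in PTC and 8.53 ± 0.19 in ATC, which left a difference of 0.19 (95% interval −0.027 to 0.41, adjusted p = 0.212). The groups overlapped for Msh3.

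RefSeq promoter windows of GRCm38.p6, which run from 250 bases before to 50 bases after a transcription start, were given for 27 of the 32 genes, 13 of them among the 16 that rose. Some are shown because 13 of these genes rose, and the search used letters known from promoters of dividing cells, on both strands. CCAAT, the letters bound by the factor NF-Y, was in the windows of 16 of 27 genes (59.3%; 10 of the 13 that rose and 6 of the 14 others) and in 37.4% of all 32851 windows. TTTNNCGC, an E2F type motif, was in those of 9 genes (33.3%; 3 that rose and 6 others) and in 5.17% of all windows. Its stricter form TTTNGCGC, whose matches are a subset of these, was in those of 3 genes (11.1%) and in 1.38% of all. The cell cycle homology letters TTTGAA and TTCGAA were each in the window of 1 gene (3.70%), Bard1 and Atr, and in 17.9% and 1.56% of all windows. Promoters differ in base composition, which was not matched in these shares. A gene with several windows, such as Rad51c or Rad54l, was counted where any of them matched. The share of all windows counts each window by itself, so the 2 kinds of share are not fully alike. In the window of Chek1 there was no match. A match is a description of the sequence and not a site of binding. The 250 upstream bases of the 3 rising genes with the largest difference among those with a match, and of Fancl, whose difference was nearest to 0 among genes with a window, follow 5′ to 3′ on the gene's strand, with matches in capitals (ATTGG is CCAAT on the other strand).
Brca1 (chr11:101551956-101552205, minus strand): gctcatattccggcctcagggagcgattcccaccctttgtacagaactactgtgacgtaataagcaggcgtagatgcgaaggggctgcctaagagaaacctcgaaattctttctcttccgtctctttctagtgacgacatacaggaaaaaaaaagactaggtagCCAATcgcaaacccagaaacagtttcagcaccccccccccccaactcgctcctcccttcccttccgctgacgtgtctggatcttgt
Brip1 (chr11:86201194-86201443, minus strand): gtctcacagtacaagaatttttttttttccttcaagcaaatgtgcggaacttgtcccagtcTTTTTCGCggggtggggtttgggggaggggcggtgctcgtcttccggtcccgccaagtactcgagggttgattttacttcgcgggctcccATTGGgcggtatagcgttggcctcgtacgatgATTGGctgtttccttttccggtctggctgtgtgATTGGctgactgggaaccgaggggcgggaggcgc
Blm (chr7:80534999-80535248, minus strand): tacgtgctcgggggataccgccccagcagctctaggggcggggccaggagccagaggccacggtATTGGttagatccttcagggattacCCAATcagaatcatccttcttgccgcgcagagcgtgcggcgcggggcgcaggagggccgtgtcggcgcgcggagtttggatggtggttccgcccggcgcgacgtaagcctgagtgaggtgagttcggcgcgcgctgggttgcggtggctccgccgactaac
Fancl (chr11:26386834-26387083, plus strand): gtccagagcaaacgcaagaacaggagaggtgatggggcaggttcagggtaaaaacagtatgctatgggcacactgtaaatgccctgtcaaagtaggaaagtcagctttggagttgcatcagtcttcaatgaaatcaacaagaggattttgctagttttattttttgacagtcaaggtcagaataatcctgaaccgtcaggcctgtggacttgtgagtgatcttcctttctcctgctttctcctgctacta
Brca1 has 1 CCAAT match, which starts 86 bases before the transcription start. Brip1 has 3 CCAAT matches, starting 99, 67 and 34 bases before the start, and 1 TTTNNCGC match starting 189 bases before it. Blm has 2 CCAAT matches, starting 186 and 161 bases before the start. In the 250 bases of Fancl there were 0 matches.

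The ATC tumours differed from each other in how far the repair genes were raised, and cell division genes differed with them. The mean over the 32 genes was 7.50 to 7.65 in the PTC tumours and 7.85, 7.95, 7.97, 7.79 and 8.06 in ATC replicates 1 to 5. A list of 29 cell division genes, which shares no gene with the 32, had means of 7.87 to 8.04 in PTC and 8.68, 9.01, 8.83, 8.15 and 9.22 in the ATC tumours, and 20 of its genes rose. ATC replicate 4 was lowest and ATC replicate 5 highest of their group in both means. Of the 32 genes, 14 had their highest ATC value in replicate 5 and 14 their lowest in replicate 4. The same counts over all genes were not made, and ATC replicate 5 was also the array with the widest distribution. The cell division mean of ATC replicate 4 was 8.15 and the highest PTC mean 8.04. In this tumour 21 of the 32 repair genes were above all 5 PTC values, against 22, 23, 25 and 25 in ATC replicates 1, 2, 3 and 5. The share of all genes above all 5 PTC values was not counted tumour by tumour, so these counts have no background. In ATC replicate 4, Blm (7.82), Palb2 (6.92) and Xrcc5 (10.17) stood clear of the PTC tumours, while Brca1 (6.67) did not.

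**Figure D3:**
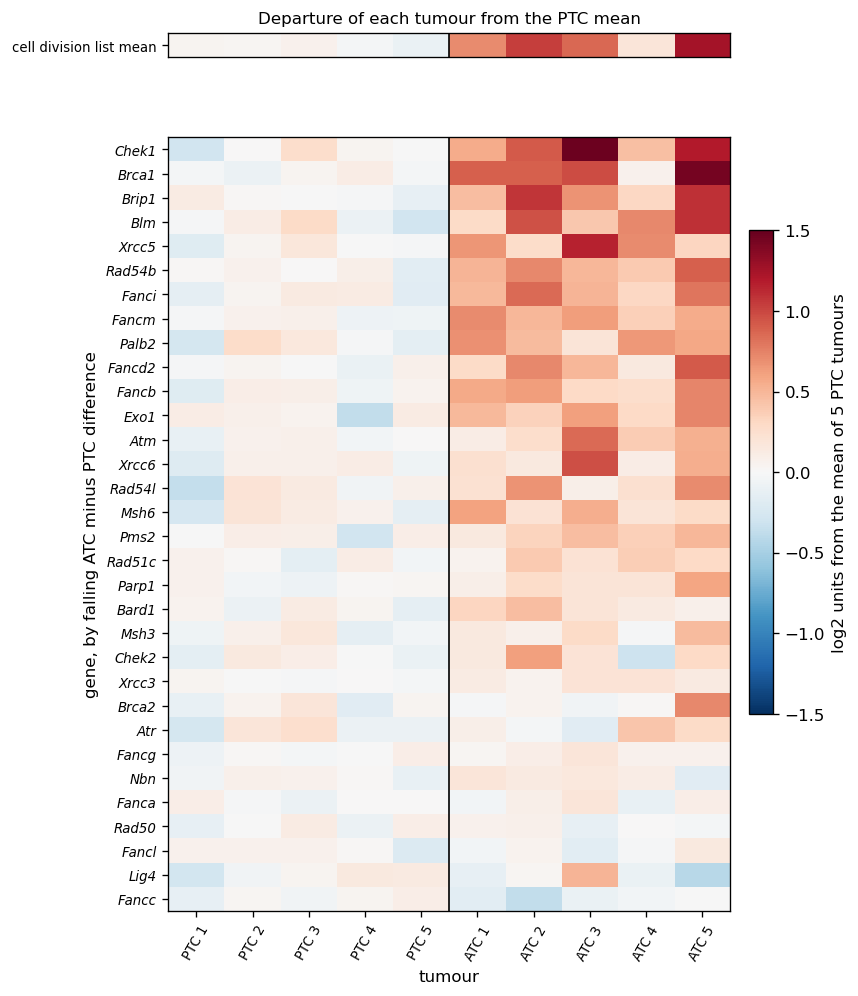
Departure of each tumour (columns, 5 PTC and 5 ATC) from the mean of the PTC tumours, in log2 units as colour, for the 32 repair genes (rows, by falling difference) and, in the strip above, for the mean of 29 cell division genes. Red is higher than the PTC mean; ATC replicate 4 is the palest ATC column in the strip and ATC replicate 5 the darkest.

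When the cell division mean was added to the fit as a covariate, 0 of the 32 genes passed by limma (3 at an unadjusted p under 0.05, all higher in ATC), and 1.17% of all genes rose. This covariate correlated with tumour type at r = 0.84 over the 10 arrays, and the median SE of the 32 genes was 1.77 times that without it, so that the fit separates the covariate from tumour type poorly. The median difference of the 32 genes was 0.17 in this fit. Fitted differences moved unequally. That of Brca1 was −0.059 (SE 0.16, adjusted p = 0.891), that of Fancd2 −0.047 (SE 0.14, adjusted p = 0.898) and that of Brip1 0.072 (SE 0.14, adjusted p = 0.838), each within 1 SE of 0. Those of Xrcc5, Palb2 and Fancm were 0.91 (SE 0.27, adjusted p = 0.111), 0.61 (SE 0.23, adjusted p = 0.196) and 0.41 (SE 0.14, adjusted p = 0.146), and these are the 3 genes under an unadjusted p of 0.05. Of the 16 genes that rose, 14 had a positive fitted difference with the covariate and 13 a smaller one than without it. Whether cell division accounts for any rise was not tested by a design that separates it from tumour type.

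**Figure D4:**
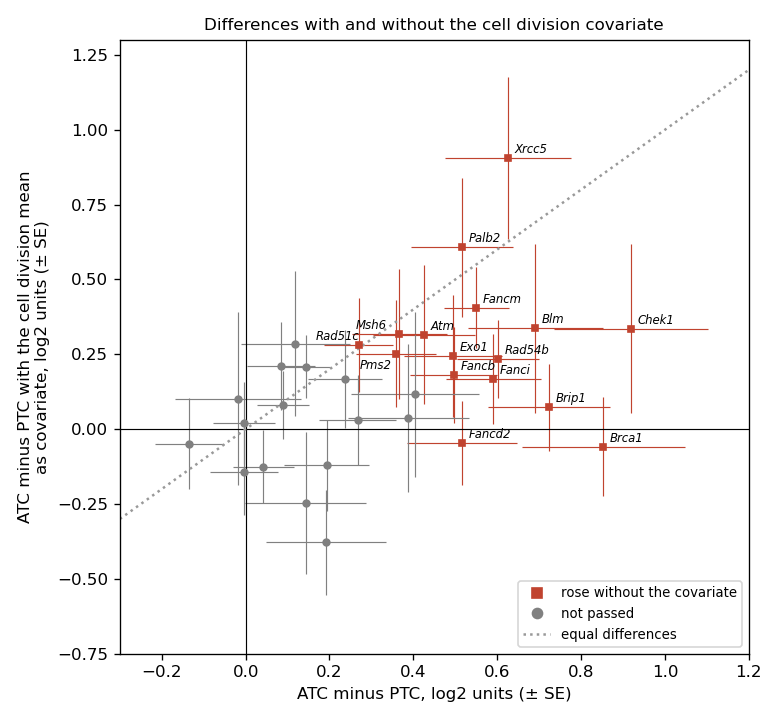
Difference between ATC and PTC in log2 units without (horizontal axis) and with (vertical axis) the mean of the cell division list as a covariate, for the 32 genes, with SEs as bars; squares mark the 16 genes that rose. Brca1, Fancd2 and Brip1 lie near 0 on the vertical axis, and Xrcc5 and Palb2 lie above the dotted line of equal differences.

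Other repair genes, listed by textbook membership of their pathways, rose in part. Of 96 measured, 24 rose (25%), 3 fell and 69 did not pass, with a median difference of 0.087. Of all genes, 11.5% rose and 9.72% fell, with a median of −0.018. By list, the share that rose was 16.7% for Fanconi, 33.3% for recombination and 33.3% for checkpoint and signalling genes. It was 0% for end joining, 25% for mismatch repair, 17.6% for base excision and 29.4% for nucleotide excision repair. In the Fanconi pathway 2 of 12 further genes rose, Usp1, which removes ubiquitin from FANCD2 (0.63, SE 0.12, adjusted p = 0.00413), and the nuclease scaffold gene Slx4 (0.31, SE 0.091, adjusted p = 0.0309). Uhrf1 differed by 0.48 (adjusted p = 0.0882) and passed without ATC replicate 4 (0.61, adjusted p = 0.0248). Slx4 did not pass when PTC tumour 1, 2, 3 or 4 or ATC tumour 3 or 5 was dropped (0.25 to 0.32, adjusted p 0.0586 to 0.0797). In recombination 7 of 21 rose and 1 fell. Gen1, a resolvase of crossed-over DNA, rose by 1.36 (SE 0.27, adjusted p = 0.00434), and Fignl1 by 0.99 (SE 0.14, adjusted p = 0.000833). Mre11a, the nuclease that works with Rad50 and Nbn, rose by 0.57 (SE 0.13, adjusted p = 0.0112). The gene that fell was Rad51d (−0.40, SE 0.076, adjusted p = 0.00362), opposite in sign to Rad51c.

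Among 18 further checkpoint and signalling genes 6 rose and 0 fell by limma (0 also at an unadjusted p under 0.05). Tipin, a fork protection gene, rose by 0.89 (SE 0.16, adjusted p = 0.00274), the ATR activator gene Topbp1 by 0.65 (SE 0.12, adjusted p = 0.00293) and Clspn, the mediator of CHK1 activation, by 0.63 (SE 0.14, adjusted p = 0.00711). Of 7 further end joining genes 0 passed by limma (0 also at an unadjusted p under 0.05), with Xrcc4 at −0.12, Prkdc at 0.11 and Aplf at 0.092 (adjusted p = 0.692, 0.503 and 0.534). Of 4 further mismatch repair genes 1 rose, Pms1 (0.41, SE 0.13, adjusted p = 0.0382), while Msh5 and Mlh3 differed by 0.15 and 0.067 (adjusted p = 0.292 and 0.724). Pms1 did not pass when PTC tumour 1, 2 or 5 or ATC tumour 3, 4 or 5 was dropped (0.32 to 0.42, adjusted p 0.0602 to 0.0892), with all probe sets (difference 0.41, adjusted p = 0.0589) and with array weights (difference 0.28, adjusted p = 0.117).

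Base and nucleotide excision repair, which replace damaged bases and short damaged strands, gave 3 of 17 genes up with 0 down by limma (0 down also at an unadjusted p under 0.05) and 5 of 17 up with 2 down. The base excision genes were the glycosylase gene Neil3 (0.70, SE 0.22, adjusted p = 0.0442), the endonuclease gene Apex1 (0.44, SE 0.077, adjusted p = 0.00219) and the flap nuclease gene Fen1 (0.30, SE 0.088, adjusted p = 0.0322). Neil3 did not pass when any 1 of the 5 PTC tumours or ATC tumour 2, 3 or 5 was dropped (0.54 to 0.74, adjusted p 0.0575 to 0.105), and Fen1 when PTC tumour 2, 3 or 4 or ATC tumour 2, 3 or 5 was (0.25 to 0.30, adjusted p 0.0602 to 0.0769). Neil3 also did not pass with all probe sets (difference 0.70, adjusted p = 0.068) or with a variance trend and robust estimation (difference 0.70, adjusted p = 0.0515). In nucleotide excision repair the largest differences were those of Ercc1 (0.70, SE 0.17, adjusted p = 0.0125) and the damage recognition genes Ddb1 (0.55, SE 0.11, adjusted p = 0.00524) and Rad23b (0.54, SE 0.11, adjusted p = 0.0052). The genes that fell were Ercc5 (−0.39, SE 0.10, adjusted p = 0.0206) and Ercc6 (−0.31, SE 0.079, adjusted p = 0.0175), named because the count was small, and Ercc5 did not pass without PTC replicate 3 or 4 (−0.38 to −0.37, adjusted p 0.0501 to 0.052).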

How the data were processed

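Tumour RNA was biotin labelled for Affymetrix arrays, per the labels' protocols. The deposited table holds 35556 probe sets on 10 arrays. The authors' values were read as log2 intensities from their range (2.79 to 14.15) and tested as deposited. Affymetrix Power Tools and limma are named per the submitters' processing notes, without version or role. How background and array differences were treated and which build served are points not given in the sources used here. This deposited table has no detection call, so a dim probe set can understate a change.

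Probe sets with 1 platform symbol (21789) gave 19938 genes. The 2 groups were compared in limma 3.58.1 (lmFit, then eBayes, R 4.3.3, with statmod 1.5.0), without covariates or filter, and adjusted over all genes at 0.05. The procedure was tested on simulated data. These had independent genes and the same SD in both groups, whereas 68.6% of genes here had the larger SD in ATC. Python 3.11.15, numpy 2.4.6, pandas 2.3.3 and matplotlib 3.10.9 made tables and figures. All 32 matched members were named, with the 3 largest absolute differences of each list of other repair genes. Ercc5 and Ercc6, and Rad51d, were named after their values were seen. Other repair genes without a probe set of 1 symbol (9 of 105) are not analysed here. The members and lists were chosen with earlier results of these data known. Alternatives are given in the closing section. The number of arrays limits the precision.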

Additional observations from a re-analysis of the deposited data

Results flagged for a closer look

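Within groups of 5 tumours, 5 of 66 checks found 1 tumour far from the others, where chance alone gives about 1 in 20. In each the gap to the nearest tumour was more than 0.710 of the whole range of the group. In PTC, Fancl had its low tumour in replicate 5 (7.92, against 8.15 to 8.19, gap 0.841 of the range). Exo1 (6.09, against 6.51 to 6.59, gap 0.854) and Pms2 (7.26, against 7.55 to 7.65, gap 0.741) had theirs in PTC replicate 4. In ATC, replicate 5 stood apart upwards for Brca2 (7.88, against 7.10 to 7.20, gap 0.865) and downwards for Nbn (9.09, against 9.37 to 9.44, gap 0.785). This is also the array with the widest distribution. The cause was not tested.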

How the results depend on the processing

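With each array left out in turn, 13 to 16 of the 32 genes rose and 0 fell, with a median difference of 0.30 to 0.40. Among other repair genes 18 to 27 rose and 2 to 3 fell, and among all genes 1762 to 2287 rose and 1490 to 1877 fell. Of the 16 rises, 13 held in all 10 of these fits. Replicate numbers did not pair the tumours (correlations of deviations −0.086 to 0.12), and with a replicate block 14 of the 32 genes rose, Rad51c and Msh6 no longer passing (differences 0.27 and 0.37, adjusted p = 0.0662 and 0.0876). Of the other repair genes named, Slx4, Fen1 and Ercc6 did not pass with the block (adjusted p = 0.0645, 0.0655 and 0.065), and it changed no other named call. Among genes above the median level 6 of the 15 members still in the fit rose, with a median of 0.19, where 21.1% of all genes rose and their median was 0.058. With the cell division covariate 0 members rose (median 0.17), 1 other repair gene rose and 0 fell (7 higher and 4 lower at an unadjusted p under 0.05), and 233 of all genes rose and 255 fell. Of genes called without the covariate, signs turned there for Brca1 (−0.059), Fancd2 (−0.047), Neil3 (−0.24) and Fen1 (−0.0071); the cause was not tested. Of genes not called, Fanca, Brca2, Chek2, Msh3, Uhrf1 and Mlh3 turned negative and Rad50 and Lig4 positive. Under the mean of probe sets, all probe sets, a filter on the dimmest genes (30 members in the fit), quantile normalization, median centring, a variance trend with robust estimation and array weights, 14 to 19 members rose and 0 fell.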
